A study of Mus musculus with 33 samples.

Results

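Vcam1-expressing macrophages of bone marrow were sought among the cells of 8 bone samples, and 710 of 15997 kept cells met the marker rule. The rule asked for at least 1 UMI (a unique molecule counted once) from at least 3 of the 6 genes Vcam1, Cd5l, Slc40a1, Mrc1, Spic and Vsig4, in cells with at least 500 UMIs, at least 200 detected genes and at most 15% mitochondrial UMIs. The 6 genes therefore chose the cells, and their levels are given below as a description only. The whole series held 77728 kept cells.

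The study used SAMENT, a method in which injected tumour cells tag the cells around them with biotin, so that the tagged neighbourhood can be sorted from the rest of a tissue and sequenced cell by cell. All bone cells described here, unless said otherwise, came from femurs and tibias of mice given tumour cells by intracardiac injection and labelled overnight with the SAMENT substrate. Digested tissue was sorted into biotin positive cells (4 samples) and biotin negative cells (4 samples). Liver, brain and lung of the same injection type were sorted likewise into 4 samples each, and a separate pooled bone library came from an injection the labels call IIA, with 6 hashtagged positive and 6 hashtagged negative samples. Strain, age, sex and tumour cell line were not given in the labels used here, and no uninjected group was analysed here. The labels number the samples of a group without saying whether each came from its own animal, so that every p-value below measures the spread between these samples only.

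Resident macrophages of bone marrow engulf aged red cells and the nuclei that erythroblasts expel, break down the haem and return the iron to the blood. Vcam1, an adhesion molecule that holds developing red cells and progenitors, the haem-responsive transcription factor Spic, the iron exporter Slc40a1 (ferroportin), the mannose receptor Mrc1, the scavenger protein Cd5l and the complement receptor Vsig4 are all known from such cells. Kupffer cells, the resident macrophages of liver, share much of this programme and were used as the closest comparison.

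The marker-rule cells were spread unevenly. Biotin positive bone samples 1 to 4 held 197, 365, 19 and 7 of them, and biotin negative samples 1 to 4 held 2, 107, 9 and 4. Positive samples 1 and 2 thus held 562 of the 710 cells, or 79.2%. Bone samples ranged from 620 to 3505 kept cells and from 9058909 to 44834665 UMIs in all. The samples had been multiplexed with cell tags, and the main tag of 708 of the 710 cells was that of their own sample. Bone samples shared 37 cell barcodes with each other, all between different replicate numbers, and same-numbered samples of the 4 tissues shared 0. Per the file headers the 8 intracardiac samples of each number list the same 8 cell tags, and the labels do not say whether a number stands for 1 pool or 1 animal. Of all these samples, number 2 held the highest share of marker-rule cells in each of the 8 intracardiac groups. In bone, 3 marker-rule cells carried a barcode that also occurred in another tissue.

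The label of macrophage held for only some of these cells. C1qa, C1qb and C1qc, which encode the complement C1q chains made by tissue macrophages, served as a check outside the rule, beside the summed share of 12 neutrophil genes. A UMI of at least 2 of the 3 C1q genes was found in 171 of 197 marker-rule cells of positive sample 1 and in 317 of 365 of sample 2, but in 4 of 19 of sample 3, 3 of 7 of sample 4 and 22 of 107 of negative sample 2. Cells that also drew under 5% of their UMIs from the neutrophil genes, called C1q-positive neutrophil-low below, numbered 109, 302, 3 and 3 in positive samples 1 to 4 and 1, 9, 2 and 1 in negative samples 1 to 4. This made 430 of the 710 cells, with 411 in positive samples 1 and 2. This division was drawn after the values were seen, and 23 of the 710 cells lay between 4% and 6% neutrophil UMIs.

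The other 280 marker-rule cells were mostly deep cells, many of them rich in neutrophil RNA. In negative sample 2 they drew a median of 41.7% of their UMIs from the neutrophil genes, against 35.6% in the sample's cells outside the rule, and the median marker-rule cell there held 23730 UMIs against 7898 in the cells outside it. In positive sample 3 the median marker-rule cell held 47239 UMIs, against 10996 outside the rule. Those of the 280 in positive samples 1 to 4 drew medians of 24.8%, 7.68%, 5.28% and 8.43% from the neutrophil genes. Cells outside the rule stood at 17.2%, 9.09%, 9.44% and 34.9%, so that only positive sample 1 showed an excess. From 6 granulocyte precursor genes, those of the 280 drew medians of 0.0254%, 0.0336%, 3.48% and 3.03% in positive samples 1 to 4. In positive sample 1, 62 cells carried at least 2 C1q genes together with at least 5% neutrophil UMIs, and in sample 2 there were 15 of these. No doublets were removed, and the part of doublets and free RNA in the neutrophil UMIs was not tested. Results are therefore given for all marker-rule cells first and then for cells with at least 4 of the 6 markers, a stricter form of the rule that left 112, 256, 3 and 3 cells in the positive samples and 1, 18, 2 and 0 in the negative samples. Of the 112 and 256 cells, 68 and 241 were C1q-positive neutrophil-low (60.7% and 94.1%). Over all marker-rule cells of positive samples 1 and 2 these shares were 55.3% and 82.7%.

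**Figure D1:**
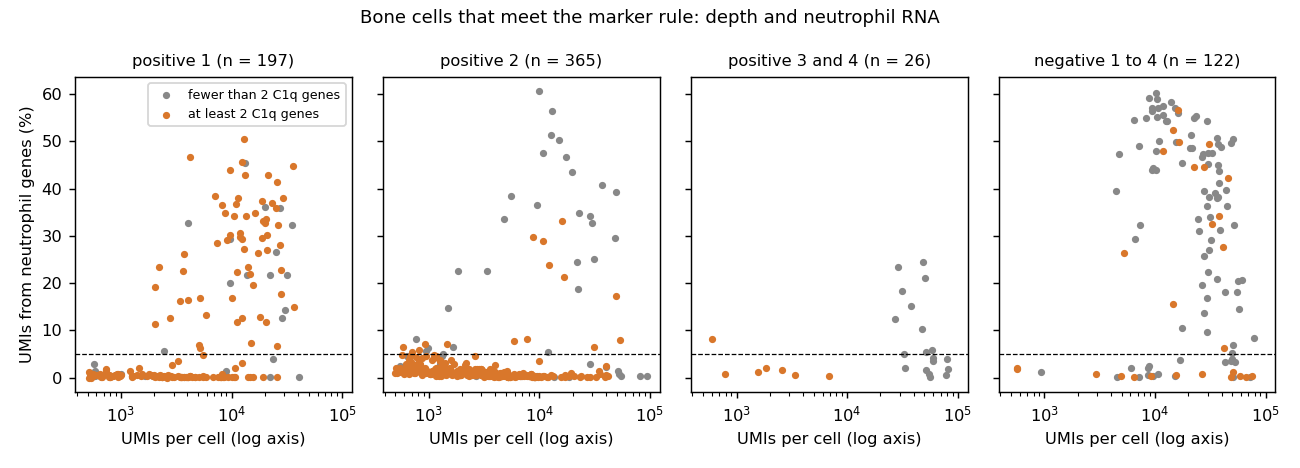
Each point is 1 of the 710 marker-rule cells of bone, plotted by its UMI count (log axis) and by the percentage of its UMIs that came from 12 neutrophil genes, in positive sample 1, positive sample 2, positive samples 3 and 4, and the 4 negative samples. Orange cells held a UMI of at least 2 of the 3 C1q genes, grey cells did not, and the dashed line marks 5%. Orange cells below the line were 109 of 197 in positive sample 1 and 302 of 365 in positive sample 2. A further 62 and 15 orange cells there lay at or above the line, while grey cells above it made up most of the negative samples.

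At the edge of the rule, cells with 2 markers were left out and cells with 3 were taken in. At least 2 C1q genes were detected in 27.1% of the 170 cells with 2 markers and 75.3% of the 85 cells with 3 markers in positive sample 1, and in 27.5% of 149 and 62.4% of 109 in positive sample 2. With 4 markers these shares were 91.9% of 62 cells and 93.2% of 88 cells, and with 5 markers 100% of 48 cells and 99.3% of 144 cells. In negative sample 2 the share stayed low, with 14.1% of the 433 cells with 2 markers, 20.2% of the 89 with 3 and 23.1% of the 13 with 4.

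The rule genes themselves were unequal. Among C1q-positive neutrophil-low cells, Vcam1 was detected in 100% of positive sample 1 and 98.7% of sample 2, Mrc1 in 89.0% and 99.0%, Slc40a1 in 83.5% and 92.1%, Cd5l in 62.4% and 65.6%, Spic in 56.9% and 70.5%, and Vsig4 in 5.5% and 16.6%. In the cells outside the rule, which by construction hold at most 2 of the 6 genes, Vcam1 was detected in 10.2% and 20.2% of them, Slc40a1 in 30.9% and 27.5%, Mrc1 in 7.79% and 22.5%, Vsig4 in 0.0552% and 4.41%. These cells were deeper, with medians of 6965 and 7214 UMIs against 2229 and 2810.5.

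Levels followed the same order. In CPM (UMIs scaled to 1000000 UMIs of the cells summed), Vcam1 reached 2613 in the 4-marker cells of positive sample 1 and 10884 in those of sample 2, against 28.9 and 68.6 in the cells outside the rule. Vsig4 reached 26.9 and 70.8. In the 4-marker cells of liver positive samples 1, 2 and 3 Vcam1 was at 2131, 1660 and 691, while Vsig4 was at 1276, 2255 and 1436. Cd5l was at 358 and 608 in bone and at 2301, 3754 and 3916 in liver. Spic was at 200.4 and 714 in bone and at 140, 122 and 90.9 in liver.

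Outside the rule, the 10 genes that stood highest in marker-rule cells over the other cells of the same positive samples were C1qa, Fcna, C1qc, Axl, Selenop, C1qb, Maf, Hmox1, Ctsb and Sdc3. They were ranked by the median over samples 1, 2 and 3 of log2 CPM ratios with 50 CPM added, a description with no test because the same cells were chosen by expression. C1qa was at 1019, 2997 and 52.5 CPM in the marker-rule cells of these samples and at 114, 119.9 and 3.8 CPM in the other cells. Hmox1, the enzyme that opens haem, was at 831, 4214 and 33.3 CPM against 135, 339 and 10.3. Axl, a receptor for dying cells, was at 319.9, 609 and 6.40 CPM against 14.8, 17.7 and 1.41. Sample 3 was far below samples 1 and 2 for all 3 genes. In the 4-marker cells of samples 1 and 2 the leading genes also took in Cd163, Trf, Ccr3, Lgmn, Itgad, Mertk, Marcks, Glul and Apoe. Among these Cd163, the receptor for haemoglobin bound to haptoglobin, was at 273 and 1550 CPM against 3.68 and 10.1 in cells outside the rule, and Mertk, a further receptor for dying cells, at 265 and 549 CPM against 4.12 and 13.3.

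Whether tagging by tumour cells went with these cells was asked first by their share. Marker-rule cells made up 9.81%, 35.7%, 3.06% and 0.809% of kept cells in positive bone samples 1 to 4 and 0.0675%, 4.16%, 0.368% and 0.114% in negative samples 1 to 4. Each positive sample was above the negative sample of the same number, but the groups overlapped, since negative sample 2 lay above positive samples 3 and 4. The means were 12.3% ± 16 (SD, n = 4) and 1.18% ± 1.99 (SD, n = 4), a difference of 11.2 percentage points that did not pass the two-sided exact permutation test (p = 0.171, Benjamini-Hochberg adjusted over 3 such tests 0.171; smallest possible 0.0286). Without positive sample 2 the difference was 3.38 percentage points (exact permutation p = 0.343). Without sample 2 of both sorts it was 4.38 points, with no overlap and p = 0.10, the smallest an exact permutation of 3 against 3 samples allows.

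Depth touched this comparison. When each cell was thinned to 1500 UMIs and shallower cells were left out, 70, 177, 3 and 2 marker-rule cells remained in the positive samples, or 3.76%, 20.8%, 0.525% and 0.239%. The negative samples kept 0, 2, 2 and 0, or 0%, 0.0815%, 0.086% and 0%, where a count of 0 allows up to 0.105% in sample 1 and 0.087% in sample 4. The groups then did not overlap, and the difference of 6.29 percentage points gave the smallest exact permutation p the design allows (0.0286, unadjusted). Without positive sample 2 the thinned difference was 1.46 percentage points (exact permutation p = 0.0571, the smallest that 3 against 4 samples allow). Thinning left out 27 to 171 cells of each positive sample and 58 to 120 of each negative one. The C1q-positive neutrophil-low cells, at 5.43%, 29.5%, 0.484% and 0.347% against 0.0338%, 0.350%, 0.0818% and 0.0285%, overlapped only between positive sample 4 and negative sample 2, with a difference of 8.83 percentage points. Their share was chosen after seeing the values, so no test is given for it here.

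**Figure D2:**
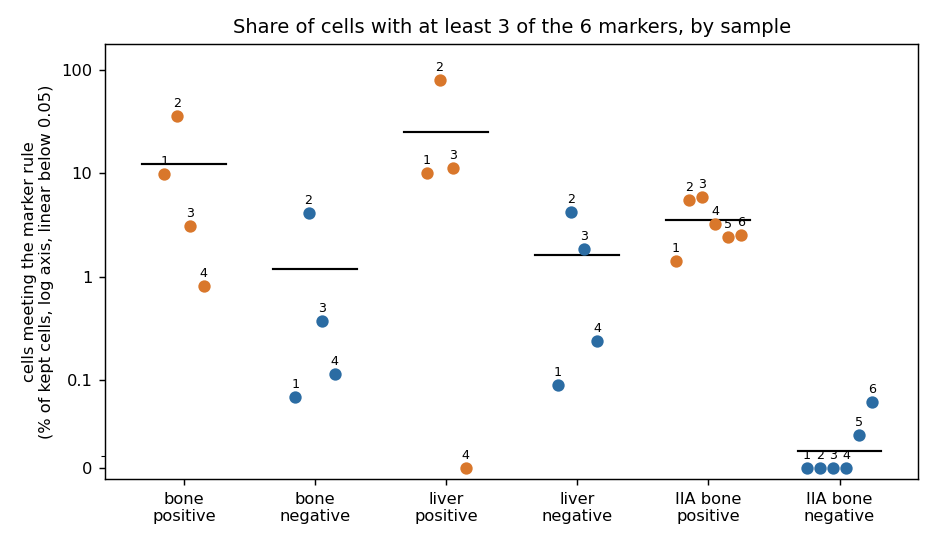
Percentage of kept cells that met the marker rule (log axis, linear below 0.05) in each biotin positive (orange) and biotin negative (blue) sample of intracardiac bone, intracardiac liver and the IIA bone library; numbers are replicate numbers and lines are group means. Bone positive sample 2 (35.7%) and liver positive sample 2 (80.3%) stand above their groups, and the 6 IIA positive samples all stand above the 6 negative ones.

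The same measure was taken in the IIA bone library, whose cells the rule for intracardiac bone did not use. Its 6 positive samples held 6, 27, 56, 8, 52 and 16 cells with at least 3 markers and its 6 negative samples 0, 0, 0, 0, 1 and 2, where a count of 0 allows up to 0.129%. Shares were 1.42%, 5.57%, 5.86%, 3.21%, 2.43% and 2.51% in the positive samples and at most 0.0605% in the negative ones, with no overlap. The means of 3.50% ± 1.81 (SD, n = 6) and 0.0149% ± 0.0251 (SD, n = 6) differed by 3.49 percentage points (two-sided exact permutation p = 0.00216, adjusted over the 3 tests 0.00649, the former being the smallest the design allows). Of these cells 3, 18, 45, 8, 14 and 12 were C1q-positive neutrophil-low in positive samples 1 to 6, and 0 were in the negative samples. The other 38 cells of sample 5 had a median macrophage-list share of 0%. Median depth outside the rule was 3590 to 10738 UMIs in the positive and 2532 to 3989.5 in the negative samples. Thinned to 1500 UMIs, the positive samples held 0.278%, 1.29%, 2.36%, 2.5%, 0.370% and 1.59% and each negative sample 0%, so that the means lay 1.40 percentage points apart (p = 0.00216 by exact permutation, unadjusted). Before thinning the marker-rule cells were more frequent among tagged cells in 6 of 6 numbered pairs. In liver the shares were 10.1%, 80.3%, 11.3% and 0% against 0.0891%, 4.25%, 1.86% and 0.237%, a difference of 23.8 percentage points that did not pass the test (exact permutation p = 0.143, adjusted 0.171). Liver positive sample 4 had 0 of 94 cells, which allows up to 3.19%. Whether the difference between the sorts was itself different between bone and liver was not tested.

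Expression in tagged against untagged marker-rule cells could not be tested as designed, because only 1 negative sample held 10 of them. With a minimum of 5 cells, 4 positive and 2 negative samples entered edgeR's quasi-likelihood test, and 0 of 8784 genes passed a false discovery rate (FDR) of 0.05, with 257 at an unadjusted p under 0.05. Summed over samples, C1qa was at 1822 CPM (95% exact Poisson interval 1786 to 1859) in positive and 61.7 CPM (53.4 to 70.8) in negative marker-rule cells. By sample it was at 1019, 2997, 52.5 and 236 CPM in positive samples 1 to 4 and at 56.6 and 61.5 CPM in negative samples 2 and 3. Positive sample 3 was thus below both negative samples, and the positive pool without sample 2 was at 675 CPM. The neutrophil granule gene Camp was at 10213 CPM (10127 to 10300) in positive and 23416 CPM (23250 to 23583) in negative cells. By sample Camp was at 20006, 6460, 2274 and 8076 CPM against 25523 and 15005 CPM, so that positive sample 1 lay between the negative ones. The intervals of the pooled values cover counting error only. The 13 C1q-positive neutrophil-low cells of the negative samples were too few to compare, and 6 of them held over 25000 UMIs. In the IIA library no negative sample held enough cells at either minimum.

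The comparison with liver asked how the tagged marker-rule cells of bone differ from cells that meet the same rule where Kupffer cells live. Over all marker-rule cells, bone positive samples 1, 2 and 3 and liver positive samples 1, 2 and 3 held at least 10 each. Of 8755 genes outside the rule, 3 passed edgeR's quasi-likelihood test at FDR 0.05 (0.0343% of genes tested), all lower in bone, and 1442 had an unadjusted p under 0.05. Cd207, the lectin langerin of Langerhans cells, was at 2.39, 0.77 and 0 CPM in bone and at 206, 178 and 108 CPM in liver, a log2 fold change of -6.92 (SE 0.71, FDR 0.040). Adamdec1, a secreted metalloprotease of tissue macrophages, was at 0.60, 0.77 and 0 CPM against 57.0, 87.7 and 80.8 CPM (log2 -6.78, SE 0.55, FDR 0.014). Tspan15, a membrane tetraspanin, was at 1.19, 1.15 and 0 CPM against 39.2, 107.6 and 72.7 CPM (log2 -6.08, SE 0.67, FDR 0.044). All 3 genes were near 0 in every bone sample and did not overlap between tissues, and none passed without bone sample 1 (FDR 0.162 to 0.181), bone sample 2 (0.065), liver sample 1 (0.065 to 0.086) or liver sample 3 (0.107).

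Bone sample 3, with 16 of its 19 cells outside the C1q-positive neutrophil-low set, entered that test as an equal replicate. With at least 4 markers only bone samples 1 and 2 (112 and 256 cells) and liver samples 1, 2 and 3 (85, 776 and 47 cells) remained. The C1q-positive neutrophil-low set held 60.7% and 94.1% of these bone cells and 89.4%, 97.8% and 93.6% of these liver cells. Of 8157 genes, 316 (3.87%) then passed FDR 0.05 in edgeR's quasi-likelihood test, 196 higher (2.4%) and 120 lower (1.47%) in bone, and all 3 genes above were among them. The count ranged from 52 without liver sample 2 to 566 without bone sample 2 and was 138 without liver sample 3. Of the 316 genes, 77 of the 196 higher and 100 of the 120 lower passed among genes whose level in the 4-marker cells exceeded that in the other cells of the tissue where they were higher. The tested direction itself chose the tissue for this filter, so these counts describe the genes and add no support for the calls.

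The genes higher in bone included genes near 0 in the surrounding marrow cells and genes that those cells also carried. Itgad, the alpha D integrin subunit that binds Vcam1, was at 174 and 738 CPM in bone samples 1 and 2 and at 0, 4.74 and 0 CPM in liver samples 1, 2 and 3. Its level in the other bone cells was 1.06 and 2.94 CPM. The log2 fold change was 6.90 (SE 0.74, FDR 0.0024). Ccr3, best known as the eotaxin receptor of eosinophils, was at 239.5 and 656 CPM in bone and at 7.63, 5.07 and 0 CPM in liver (log2 6.45, SE 0.57, FDR 0.0013), with 1.39 and 2.94 CPM in other bone cells. Both genes passed the test with each of the 5 samples left out in turn. Cd209f, a C-type lectin, was at 33.0 and 53.6 CPM against 2.54, 2.37 and 0 CPM (log2 4.27, SE 0.51, FDR 0.0031) and also passed each time.

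Kitl, which encodes stem cell factor, a growth factor for blood progenitors and mast cells, was at 58.7 and 103 CPM in bone and at 2.54, 4.91 and 18.2 CPM in liver (log2 3.80, SE 0.53, FDR 0.0051). The lipid chaperone gene Fabp4 was at 236 and 587 CPM against 15.3, 55.0 and 0 CPM (log2 3.68, SE 0.69, FDR 0.019). Pparg, a lipid-sensing nuclear receptor, was at 74.6 and 69.3 CPM against 15.3, 11.3 and 4.54 CPM (log2 2.71, SE 0.39, FDR 0.0064). The interferon-gamma-induced chemokine gene Cxcl9 was at 63.6 and 212 CPM against 15.3, 10.5 and 9.09 CPM (log2 3.59, SE 0.49, FDR 0.0051). Gpr34, a receptor for lysophosphatidylserine, was at 15.9 and 58.1 CPM against 5.08, 0.338 and 0 CPM (log2 5.59, SE 0.95, FDR 0.013). For these 5 genes the tissues did not overlap, and other bone cells stood at 106 CPM or less for Fabp4 and at 26.9 CPM or less for the rest. Without liver sample 2, Kitl, Pparg and Cxcl9 missed the threshold (FDR 0.080, 0.079 and 0.063), and Fabp4 missed it without liver sample 1 (FDR 0.056) and under DESeq2 (0.128).

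The remaining leading genes higher in bone are known from dividing and granulocytic cells. By the ranking used, the 10 largest log2 fold changes with no overlap between tissues were those of Hist1h3c, Itgad, Fcnb, Hist1h2ab, Hist1h1b, Ffar2, Ccr3, Pbk, Nusap1 and Dlgap5, between 6.97 and 5.98. Apart from Itgad and Ccr3 they encode replication-dependent histones, mitotic proteins, a neutrophil short-chain fatty acid receptor (Ffar2) and a ficolin of neutrophil precursors (Fcnb). Fcnb was at 210 and 133 CPM in the 4-marker cells of bone, below the 330 and 174 CPM of the other bone cells, and at 5.08, 1.35 and 0 CPM in liver. Hist1h1b was at 354 and 123 CPM, again below the 809 and 255 CPM of the other bone cells. Of the cell cycle list, 6 of 11 genes tested were higher in bone (Ccnb1, Cdk1, Mki67, Pclaf, Stmn1 and Top2a), and all 6 were lower in the 4-marker cells than in the other bone cells. Of the granulocyte precursor list 3 of 6 were higher (Fcnb, Ms4a3 and Prtn3), and of the neutrophil list 1 of 12 (Camp). The 12 neutrophil genes summed to 17.9% and 4.11% of UMIs in the 4-marker cells of bone samples 1 and 2, to 3.08%, 0.727% and 2.77% in those of liver, and to 22.8% and 23.8% in the other bone cells. The part of this RNA in the cell cycle and precursor calls was not tested. Without liver sample 2, Ccnb1, Cdk1, Mki67, Stmn1, Ms4a3, Prtn3, Camp, Hist1h3c, Hist1h2ab, Ffar2 and Dlgap5 missed the threshold (FDR 0.10 to 0.313), and Pbk was not tested. Without bone sample 1 the same was true of Ccnb1, Cdk1, Mki67, Stmn1, Camp, Hist1h3c and Pbk, without bone sample 2 of Ccnb1 and Pbk, without liver sample 1 of Cdk1 and Prtn3, and without liver sample 3 of Ccnb1, Cdk1, Mki67, Stmn1 and Camp. Cdk1, Camp, Ms4a3 and Prtn3 did not pass in DESeq2. Among C1q-positive neutrophil-low cells with at least 4 markers, Mki67, Prtn3 and Stmn1 missed the threshold (FDR 0.879, 0.988 and 0.113). The fit to those cells did not test Ccnb1, Cdk1, Pclaf, Top2a, Fcnb, Ms4a3, Ffar2, Pbk, Nusap1, Dlgap5 or the 3 histone genes. It tested 96 of the 196 genes higher in bone and called 67, and tested 102 of the 120 lower and called 76.

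**Figure D3:**
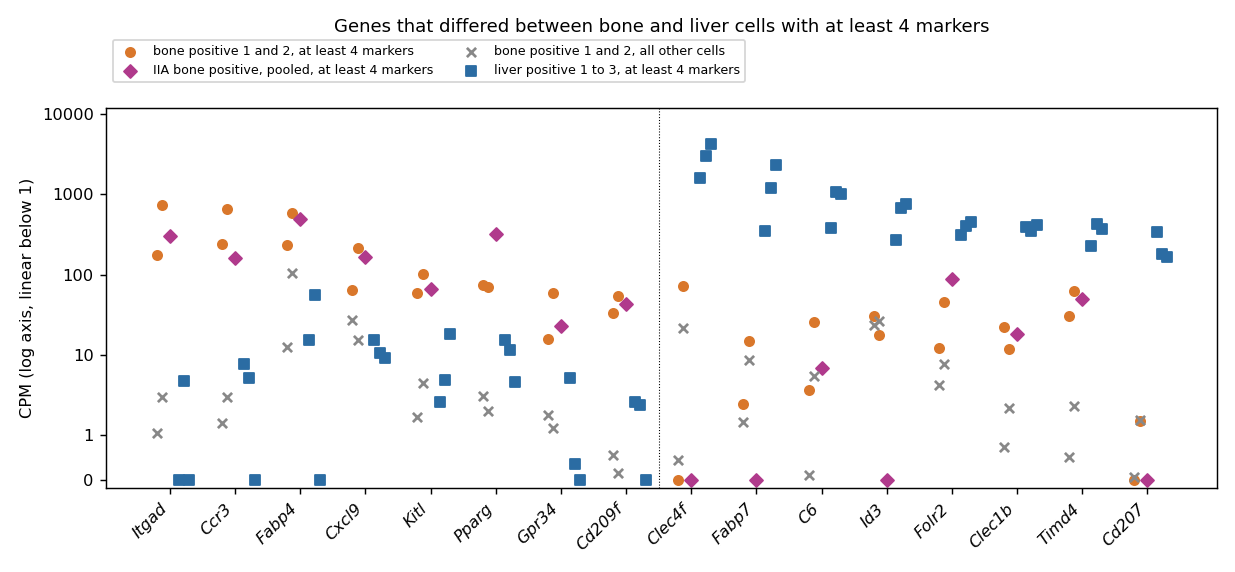
Level in CPM (log axis, linear below 1) of 8 genes higher and 8 genes lower in bone, in cells with at least 4 markers of bone positive samples 1 and 2 (orange circles), of liver positive samples 1, 2 and 3 (blue squares) and of the 6 IIA positive samples pooled (purple diamonds), with the cells outside the rule in the same bone samples as grey crosses. Bone and liver points do not overlap for any of the 16 genes, and the pooled IIA point lies on the bone side for each of the 8 genes higher in bone.

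Genes lower in bone included many of the identity genes of Kupffer cells. Of 14 genes of the Kupffer list, all tested, 8 were lower in bone and 0 higher (Cd207, Cdh5, Clec1b, Clec4f, Folr2, Id3, Il18bp and Timd4), with a list median log2 fold change of -3.18 against 0.00 over all genes tested. Clec4f, the lectin that defines Kupffer cells, was at 0 and 71.5 CPM in bone and at 1594, 3015 and 4270 CPM in liver (log2 -6.39, SE 1.21, FDR 0.020). Cdh5 is also on the endothelial list, of which 2 genes were tested and both were lower in bone (Cdh5 and Pecam1). That list summed to 0.00966% and 0.0076% of UMIs in bone and to 0.0264%, 0.0604% and 0.0504% in liver, and the part of endothelial RNA in the Cdh5 call was not tested. Of 5 nonclassical monocyte genes tested Cd300e and Treml4 were lower, as was Lepr, the 1 stromal gene tested. Pecam1 missed the threshold with any 1 sample left out (FDR 0.052 to 0.221) and Cd300e, Treml4 and Lepr without liver sample 2 (0.060 to 0.102) or liver sample 3 (0.052 to 0.076). The stromal list summed to 0.00559%, 0.0351% and 0.0186% in liver. For Clec4f, the other cells of bone sample 2 carried 21.5 CPM, and it was detected in 23.2% of the C1q-positive neutrophil-low cells of that sample and 17.5% of its cells outside the rule. In liver it was detected in 68.0%, 97.4% and 94.7% of C1q-positive neutrophil-low cells. Clec4f missed the threshold without liver sample 2 (FDR 0.079) and without liver sample 3 (FDR 0.084). Id3, a transcriptional regulator needed by Kupffer cells, was at 30.6 and 17.9 CPM against 269.5, 676 and 759 CPM (log2 -4.52, SE 0.59, FDR 0.0042). Clec1b, the podoplanin receptor, was at 22 and 11.9 CPM against 394, 353 and 413 CPM (log2 -4.50, SE 0.45, FDR 0.0018). Timd4, a phosphatidylserine receptor, was at 30.6 and 62.6 CPM against 224, 422 and 368 CPM (log2 -2.85, SE 0.42, FDR 0.0072), well above the 0.501 and 2.32 CPM of the other bone cells. Id3, Clec1b, Timd4, Cd207, Cdh5 and Folr2 passed with each sample left out in turn, and Il18bp passed only without bone sample 2 (FDR 0.068 to 0.155 in the other 4 fits). Of the remaining 6 genes of the list, Fcna was at 492.5 and 1328 CPM in bone and 648, 1575 and 1281 CPM in liver (FDR 0.83), and Marco at 6.11 and 332 CPM against 793, 3927 and 781 CPM (FDR 0.17).

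Several complement genes were lower in bone. Among the complement genes reported here C4b, C6 and Cfb were lower and C3 was higher. C6, a component of the membrane attack complex, was at 3.67 and 25.3 CPM in bone and at 384, 1079 and 995 CPM in liver (log2 -5.76, SE 0.75, FDR 0.0042). Cfb, which builds the alternative pathway convertase, was at 6.11 and 11.9 CPM against 71.2, 109 and 236 CPM (log2 -3.82, SE 0.58, FDR 0.0083). The C1q chains did not pass: C1qa was at 1426 and 5238 CPM in bone and at 4470, 5636 and 4175 CPM in liver (FDR 0.72), so that its tissues overlapped. C3 was at 297 and 129 CPM against 53.4, 36.0 and 45.4 CPM (FDR 0.020), but at 291 and 199.6 CPM in the other bone cells. Without liver sample 2, C3 and C4b missed the threshold (FDR 0.129 and 0.056), while C6 and Cfb passed each time. C3 also missed it without bone sample 1 (FDR 0.065) and without liver sample 3 (0.0955), and among C1q-positive neutrophil-low cells (log2 1.10, FDR 0.106, against 2.37 in the 4-marker cells).

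Fabp7, a fatty acid binding protein, was at 2.44 and 14.9 CPM in bone and at 351, 1207 and 2312 CPM in liver (log2 -7.12, SE 0.98, FDR 0.0051). Alb, Tmc3 and Fgg had 0 UMIs in the 4-marker cells of bone, and set against a floor of 3 counts over both bone samples they were at least 23.0-fold, 9.60-fold and 10.5-fold lower than in liver. Fgg missed the threshold without bone sample 1 or 2 (FDR 0.057 and 0.093) and Tmc3 without bone sample 2 or liver sample 3 (0.076 and 0.052), while Alb passed in the 3 of 5 such fits that tested it. Alb and Fgg encode proteins secreted by hepatocytes, and 6 of 10 hepatocyte genes were at 0 in bone. The whole hepatocyte list, which holds Trf, summed to 0.0489% and 0.186% of UMIs in bone and to 0.0692%, 0.0947% and 0.0395% in liver. Bone sample 2 was above every liver sample only through Trf, which made up nearly all of both bone sums (its levels are given below). The rest of the list summed to less in both bone samples than in any liver sample. Btbd11 and Adm completed the leading 10, with log2 fold changes of -6.21 and -6.14. Of the 17 scavenger receptor and lectin genes tested, Cd209f was higher in bone, and Clec1b, Colec12, Folr2 and Msr1 were lower. With 1 sample left out, Colec12 kept its call only without liver sample 1, and it missed the threshold among C1q-positive neutrophil-low cells (FDR 0.079). The macrophage scavenger receptor Msr1 was at 46.4 and 178 CPM against 371, 881 and 509 CPM (FDR 0.042), and it missed the threshold without bone sample 1 (FDR 0.134), liver sample 2 (0.156) or liver sample 3 (0.126), or among genes above the other cells (0.0504). The interferon regulator Irf7, at 22 and 23.8 CPM against 119.5, 207 and 373 CPM, was the only one of 10 interferon-stimulated genes tested that passed (log2 -3.29, SE 0.51, FDR 0.0091).

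Of 19 iron and haem recycling genes tested, 0 passed in edgeR's test, with a list median of 0.05. As 3.87% of all genes passed, counts of 0 or 1 in a list of this size are near the share over all genes, in each list described. Hmox1 was at 1397 and 6851 CPM in bone and at 1431, 4763 and 468 CPM in liver (FDR 0.76). Cd163 was at 273 and 1550 CPM against 828.8, 1602 and 336 CPM (FDR 0.99). The iron carrier gene Trf was at 488 and 1862 CPM against 547, 876 and 363 CPM (FDR 0.46). The ferritin genes lay close together over the 5 samples, Fth1 between 5679 and 10543 CPM and Ftl1 between 3937 and 7136 CPM. Bone sample 2 was above bone sample 1 for each of these 5 genes, and no difference between the tissues was detectable with these samples.

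Of 17 genes tested for taking up dying cells 1 passed, Timd4, near the 3.87% of all genes. Axl was at 515 and 1087 CPM in bone and at 297, 503 and 277 CPM in liver, with no overlap but an FDR of 0.16. It passed among C1q-positive neutrophil-low cells with at least 4 markers (log2 1.61, FDR 0.027). Mertk was at 265 and 549 CPM against 419.5, 454 and 386 CPM (FDR 0.98). Of 9 genes tested that are known from erythroblastic islands, the clusters in which red cells mature around a macrophage, Il18bp was lower in bone and 0 were higher. Of the list of splenic and bone marrow resident macrophages 5 of 7 genes were tested, of which Il18bp was lower and 0 were higher, with a median log2 fold change of -0.62. That list summed to 0.166% and 0.741% of UMIs in the 4-marker cells of bone, to 0.0170% and 0.0384% in the other bone cells and to 0.230%, 0.571% and 0.116% in the 4-marker cells of liver, so that the tissues overlapped. Hmox1, whose levels are given above, made up most of both bone sums. Without Hmox1 the rest of the list summed to less in both bone samples than in any liver sample, a difference that was not tested. Siglec1, on both lists and the adhesion receptor CD169 of these islands, was at 28.1 and 52.1 CPM against 40.7, 56.7 and 90.9 CPM (FDR 0.60), and the growth factor Igf1 at 229.8 and 251 CPM against 267, 136 and 218 CPM (FDR 0.85), with 3.62 and 7.43 CPM in other bone cells.

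Among signals by which marrow macrophages may reach their neighbours, Kitl was the 1 of 7 tested genes that passed. Cxcl12, the main retention factor of marrow, had 1.22 and 0.745 CPM in the 4-marker cells, below the 8.35 and 27.7 CPM of the other bone cells. Of 16 checkpoint and suppressive genes tested 0 passed. Sirpa, which receives the CD47 signal that restrains phagocytosis, was at 430.2 and 1001 CPM against 381, 410 and 395 CPM (FDR 0.29), and Vsir, a ligand that restrains T cells, at 312 and 245 CPM against 160, 174 and 127 CPM (FDR 0.19). Il10 was at 22 and 200.4 CPM against 0, 64.6 and 0 CPM (FDR 0.48). Sirpa and Vsir did not overlap between tissues, as 29.5% of all genes tested did not.

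The estrogen receptor gene Esr1 was near its level in the other bone cells. It was at 3.67 and 5.96 CPM in the 4-marker cells of bone and at 3.06 and 4.34 CPM in the other bone cells, and Esr2, Gper1 and Pgr had 0 UMIs among the 2160507 of the 4-marker cells, which allows up to 1.39 CPM each. None of the 10 tested genes of the estrogen and nuclear receptor list passed. Class II antigen presentation was at a modest level: H2-Aa was at 521 and 389 CPM in bone and at 1002, 561 and 427 CPM in liver (FDR 0.71), and 0 of 9 tested genes passed. None of 18 lysosome genes, 11 toll-like receptor genes, 6 Fc receptor genes or 9 inflammatory genes tested passed either. Of 17 transcription factors tested Pparg was higher and Id3 lower, while Maf, which sets macrophage identity, was at 593 and 997 CPM in bone (FDR 0.73). Of 17 chemokine genes Ccl12 and Cxcl9 were higher and Ccl24 lower, and of 14 lipid genes Fabp4 and Fabp5 were higher and the phospholipid transfer gene Pltp lower. Ccl12, Ccl24, Fabp5 and Pltp each missed the threshold without liver sample 2 (FDR 0.083 to 0.249) and without liver sample 3 (0.084 to 0.117). Ccl12 and Fabp5 also missed it without bone sample 2 or liver sample 1, and Pltp without bone sample 1. Ccl24 missed it among C1q-positive neutrophil-low cells (log2 -2.04, FDR 0.215) and Ccl12 among genes above the other cells (FDR 0.059). Counts of 0 here come from edgeR's test; over all genes 1267 (15.5%) had an unadjusted p under 0.05.

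**Figure D4:**
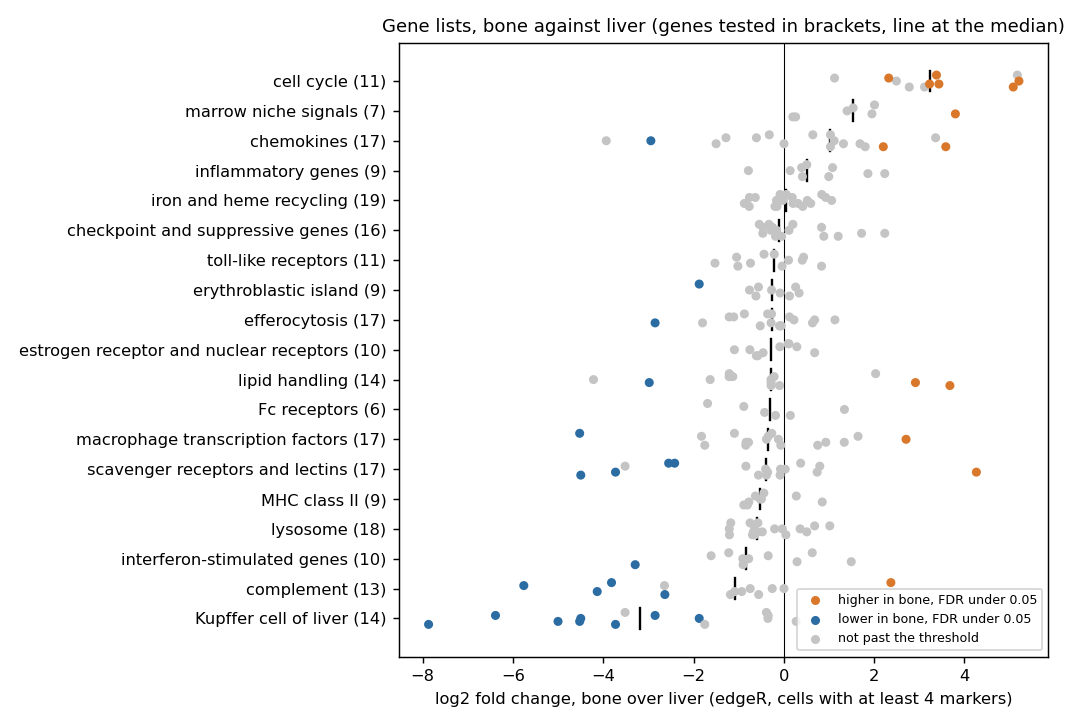
log2 fold change of bone over liver (edgeR, cells with at least 4 markers) for each tested gene of 18 function lists and of the Kupffer list; points are genes, black lines are list medians, orange and blue points passed FDR 0.05 as higher or lower in bone. The Kupffer list lies to the left with 8 lower genes, the cell cycle list to the right with 6 higher genes, and the iron and haem list is centred near 0 with no call.

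Markers of other cell types were checked in the 4-marker cells of bone samples 1 and 2. The 11 genes of a general macrophage list summed to 0.557% and 1.74% of UMIs there, against 0.0646% and 0.0886% in the other bone cells and 1.63%, 2.12% and 1.67% in liver. The Kupffer list summed to 0.0986% and 0.272%, against 0.00477% and 0.0143% in the other bone cells. The list for macrophages at the borders of the brain summed to 0.0842% and 0.305%, against 0.0353% and 0.0554%. The alveolar macrophage list summed to 0.486% and 0.267%, against 0.462% and 0.434%. Classical monocyte genes summed to 0.195% and 0.0814%, against 0.310% and 0.308%. Osteoclast genes summed to 0.00807% and 0.0468%, with Calcr and Oscar at 0 UMIs. Stromal genes summed to 0.000489% and 0.00134%, with Col3a1, Dcn and Lum at 0. Dendritic cell genes summed to 0.00318% and 0.00536%, with Siglech at 0. Erythroid genes summed to 0.0105% and 0.0307% and were at 0.0231% and 0.0231% in the other bone cells.

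The IIA library gave a separate look at the genes higher in bone, in other samples and with another multiplexing kit. Its positive samples held 67 cells with at least 4 markers and 444042 UMIs, taken as 1 pool with no replicate error. Itgad was at 304 CPM there and at 1.81 CPM in the other IIA positive cells. Ccr3 was at 159.9 against 0.749 CPM, Cd209f at 42.8 against 0.0832, Kitl at 65.3 against 4.99, Pparg at 322 against 4.04 and Fabp4 at 498 against 13. Each of these 6 genes was thus above the level in cells outside the rule in both bone experiments. This comparison is with other bone cells, so it does not test the difference between bone and liver. Clec4f, Cd207, Fabp7 and Id3 had 0 UMIs in the IIA cells, which allows up to 6.76 CPM each, and Folr2 and Timd4 were at 87.8 and 49.5 CPM. Cd163 was at 151 CPM, below both intracardiac bone samples. The 2 experiments differ in kit and software version, and no test was made between them.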

How the data were processed

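Deposited by the authors were raw UMI counts of 32285 genes for the cells of 33 samples. Per the file headers, Cell Ranger 6.1.2 wrote the intracardiac matrices and 7.1.0 the pooled IIA matrix. The submitters' processing notes name mm10 and Seurat, but the annotation and the counting of introns were not given in the sources used here. Marker-rule cells were counted per sample and their raw counts summed. IIA cells took the hashtag with at least 10 counts and 3 times the second. Shares were compared by exact permutation (scipy 1.17.1) and summed counts by edgeR 4.0.16 (quasi-likelihood, TMM, filterByExpr, Benjamini-Hochberg). DESeq2 1.42.0 was an alternative. On simulated counts for 4-marker bone and liver cells (200 of 7821 genes changed 4-fold), 27% of changed genes were recovered. The simulated spread between samples (dispersion) was set at 0.2 and not taken from these samples, so the recovery holds for that setting only. Named genes were list members past FDR 0.05 with examples, the 10 leading genes, and the 10 largest non-overlapping changes per direction. The cells, rule and lists were chosen with earlier results of these data known. The 4-marker definition was a listed alternative, used for the gene descriptions after the main test had been seen. Replicate numbers, whose meaning the labels do not give, were not treated as pairs. Some genes are not reported here.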

Additional observations from a re-analysis of the deposited data

Results flagged for a closer look

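Each of 2 samples stood far from the other 3 of its group. In biotin negative bone, sample 2 held 4.16% of marker-rule cells with the next sample at 0.368%, and 0.350% of C1q-positive neutrophil-low cells with the next at 0.0818%. In biotin positive liver, sample 2 held 80.3% of marker-rule cells with the next at 11.3%, and 76.9% of C1q-positive neutrophil-low cells with the next at 7.94%. The second measure counts a subset of the first, so these are not independent, and chance alone picks out about 1 in 20 groups. Sample 2 was the highest in each of the 8 intracardiac groups: it held 35.7% in positive bone, 29.2% in positive brain, 13.9% in positive lung, 4.25% in negative liver, 3.71% in negative brain and 2.22% in negative lung. The cause was not tested.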

How the results depend on the processing

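Among share tests, only bone thinned to 1500 UMIs changed sides of the threshold (6.29 percentage points, exact permutation p = 0.0286, unadjusted). Without each sample in turn differences ran from 3.38 to 15 points in bone, 5.52 to 32.3 in liver and 3.01 to 3.90 in IIA bone. Permuting within replicate numbers (the replicate block) gave exact p of 0.125, 0.25 and 0.0312.

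The bone and liver count over all marker-rule cells, 3, was 614 with DESeq2, 48 with median-of-ratios size factors, 336 with no filter on low counts, 65 with the replicate block, 316 with at least 4 markers, 36 and 307 with at least 20 and 5 cells per sample, 108 without the highest 5% of doublet scores, 18 among genes above the other cells, 129 in C1q-positive neutrophil-low cells, and 0 to 36 without each sample in turn. The 4-marker count, 316, was 827 with the block, 832 with no filter, 177 among genes above the other cells and 52 to 566 without each sample in turn, where a lone bone sample is assumed to vary like liver samples. Of the 316 genes, 295 were also called by DESeq2, and 289 of 298 tested over all marker-rule cells had the same sign. The 4-marker cells are part of those marker-rule cells, so the shared sign is no independent support. Settings added to the 4-marker fit, those using C1q and the thinned or pooled bone values without a sample were chosen after seeing the data. Camp was at log2 -0.013 (FDR 0.999) in C1q-positive neutrophil-low cells, which are chosen by a list that holds Camp, so that value tests nothing. Numbered bone and liver samples deviated from their group means with correlations of -0.13, 0.36 and 0.02 over marker-rule cells and of 0.22 and 0.33 over 4-marker cells, and the labels do not say what a number marks, so the numbers were not taken as pairs. In IIA bone 0 negative samples held enough marker-rule cells, so its expression test and the alternatives to it could not be fitted. In bone the design asked for 2 negative samples with 10 cells and 1 had them, so of the alternatives only the minimum of 5 cells was run.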
